A study of Mus musculus with 30 samples.

Results

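The enzymes and carriers of central carbon metabolism were followed in microglia and astrocytes sorted from the spinal cord of mice with experimental autoimmune encephalomyelitis (EAE), a myelin-directed autoimmune disease. The members were 48 protein-coding genes picked by symbol, which occupied 49 of the 30952 rows of the expression table because Aldoa had a second, short row, and no symbol was missing. They comprised 3 carriers for glucose and lactate, 17 rows of glycolysis, 2 lactate dehydrogenase subunits, 5 enzymes of the pentose phosphate pathway, 6 genes of pyruvate entry into mitochondria and 16 enzymes of the tricarboxylic acid (TCA) cycle. The mice were C57BL/6 in the labels, and those with EAE were female. The naive groups had 4 mice, the EAE-vehicle groups 6 and the EAE-RIPK1inh-1 groups 5, with 1 library per mouse and cell type and 30 libraries in all. EAE was induced by immunization with a MOG peptide. From a clinical score of about 1, vehicle (20% Captisol) or RIPK1inh-1 (GSK'547 in the labels, 50 mg/kg) was given orally for 3 days, BID. RIPK1inh-1 blocks the kinase RIPK1, which relays inflammatory and cell death signals, and the comparisons asked how these glia differed with it during EAE. The inhibitor reached the whole mouse, so effects within and outside these cells cannot be told apart. Microglia were gated as CD11b+ CD45int CX3CR1+ cells, a gate that also admits infiltrating myeloid cells with those markers, and astrocytes as GLAST+ cells without CD11b, CD45 or CD140a.

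Glycolysis splits glucose into pyruvate in the cytosol and yields ATP quickly, the pentose phosphate pathway draws on the same sugar for NADPH and ribose, and the TCA cycle oxidises pyruvate-derived acetyl groups in mitochondria. Activated macrophages and microglia are known for raised glycolysis. Astrocytes are known for taking up glucose, storing it as glycogen and passing lactate to neurons. Many steps have isozymes, encoded by separate genes, whose use differs between cell types.

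Levels are log2 FPKM, quantile-normalized over all libraries, and 0 is the bottom of the scale. Genes past the study's own limits, a change of more than 1.5-fold with an unadjusted p below 0.05 (here from limma), are termed called, and p-values were adjusted by Benjamini-Hochberg over all genes tested. "Rose" and "fell" are kept for an adjusted p under 0.05. Signal was found for 32 of the 49 rows in all 30 libraries, and 67 of the 1470 values had none. The second row of Aldoa (ENSMUSG00000114515) stayed near the bottom of the scale in all groups, with group means of 0.20 to 0.78. Libraries differed in the genes with signal, from 8710 to 20398 in microglia and from 6728 to 22981 in astrocytes. In 4 libraries it was under 10000, namely EAE-vehicle astrocytes replicate 1, naive microglia replicate 4, naive astrocytes replicate 2 and EAE-RIPK1inh-1 astrocytes replicate 5, and results that rest on them are given with and without them. Of the 49 rows, 26 carried a mark "confounded" in the deposited annotation, among them Pfkp, Gpi1, Gapdh, Pkm, Slc2a1, Pfkm, Hk2 and Hk3, as did 15717 of the 30952 rows of the table. The meaning of the mark is not given in the sources used here, and if it refers to reads shared with another gene, these levels may include such reads. In sorted bulk samples, fewer cells of a type and less RNA per cell cannot be told apart.

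The labels were checked against markers. The mean of 10 microglia markers was 10.79 in naive microglia and 1.63 in naive astrocytes, and the mean of 8 astrocyte markers was 8.40 in naive astrocytes and 1.18 in naive microglia. These lists also separated the 2 EAE-vehicle groups, with astrocyte markers at 6.25 to 7.94 in the astrocyte libraries and 1.45 to 1.89 in the microglia libraries. Marker levels differed between naive and EAE libraries. In microglia, the mean of 9 monocyte and neutrophil markers was 3.34 in naive mice (libraries 2.01 to 5.57), 4.91 in EAE-vehicle mice (3.07 to 6.27) and 4.35 with RIPK1inh-1 (2.45 to 7.34), while the mean of the 10 microglia markers went from 10.79 to 9.08 and 9.50. In astrocytes, the mean of 8 T cell markers was 0.54 in naive mice (0.17 to 0.98), 4.10 in EAE-vehicle mice (0.94 to 5.63) and 3.34 with RIPK1inh-1 (0.84 to 5.24), and that of 7 oligodendrocyte markers was 6.63 (6.19 to 7.39), 8.77 (6.38 to 9.91) and 8.54 (7.81 to 9.19). In the same order, the monocyte and neutrophil markers averaged 0.73, 3.27 and 2.74 in astrocytes, the astrocyte markers 8.40, 7.17 and 7.91, and 5 erythrocyte markers 6.91, 4.65 and 3.66. The mean of 6 neuron markers, again in that order, was 4.66, 5.31 and 4.89 in astrocytes and 0.47, 0.11 and 0.21 in microglia. The part of these cells in the results that follow was not tested.

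In naive mice the microglia and astrocyte libraries differed in the isozymes they held and in the level of the pathways. Relative to astrocytes, microglia had lower levels of 32 members and higher levels of 5 among those called, where 19.7% of all genes were called (9.64% lower and 10.0% higher), and with an adjusted p under 0.05 there were 27 lower and 3 higher (11.9% of all genes in either direction). The members' median difference was -1.54. The hexokinases, which trap glucose by phosphorylation, were divided between the cell types. Hk2 was at 7.13, 5.83, 5.82 and 7.32 in the naive microglia and at 0.01, 0.25, 0.14 and 0.18 in the naive astrocytes, a difference of 6.38 (SE 0.40, limma adjusted p = 8.34e-13). Hk3 was at 4.58, 4.99, 5.17 and 3.93 in microglia, and in astrocytes 1 library read 0.01 and the others 0.00 (difference 4.66, limma adjusted p = 5.85e-06). Hk1, the common form of brain, was the other way round, at 1.11 to 3.97 in naive microglia and 4.59 to 5.48 in naive astrocytes (difference -2.51, limma adjusted p = 0.00255). No library of either cell type overlapped with the other for these genes.

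The phosphofructokinases and aldolases were divided as sharply. Phosphofructokinase commits sugar to glycolysis, and its muscle form Pfkm averaged 8.54 ± 0.42 (SD, n = 4) in naive astrocytes and 1.43 ± 1.52 (n = 4) in naive microglia (difference -7.12, limma adjusted p = 9.34e-11). Its platelet form Pfkp was 6.08 lower in microglia on the log2 scale (log2 difference -6.08, limma adjusted p = 1.15e-10), while the liver form Pfkl averaged 5.77 ± 0.28 and 5.67 ± 0.31 (difference -0.10, SE 0.49). Aldoc, the aldolase used as an astrocyte marker, was at 12.87, 14.48, 12.87 and 13.71 in naive astrocytes and at 0.38, 1.33, 2.92 and 5.12 in naive microglia (difference -11.05, limma adjusted p = 6.84e-12). Aldoa, the common aldolase, differed by -1.54 (SE 0.19, limma adjusted p = 5.34e-07).

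**Figure D1:**
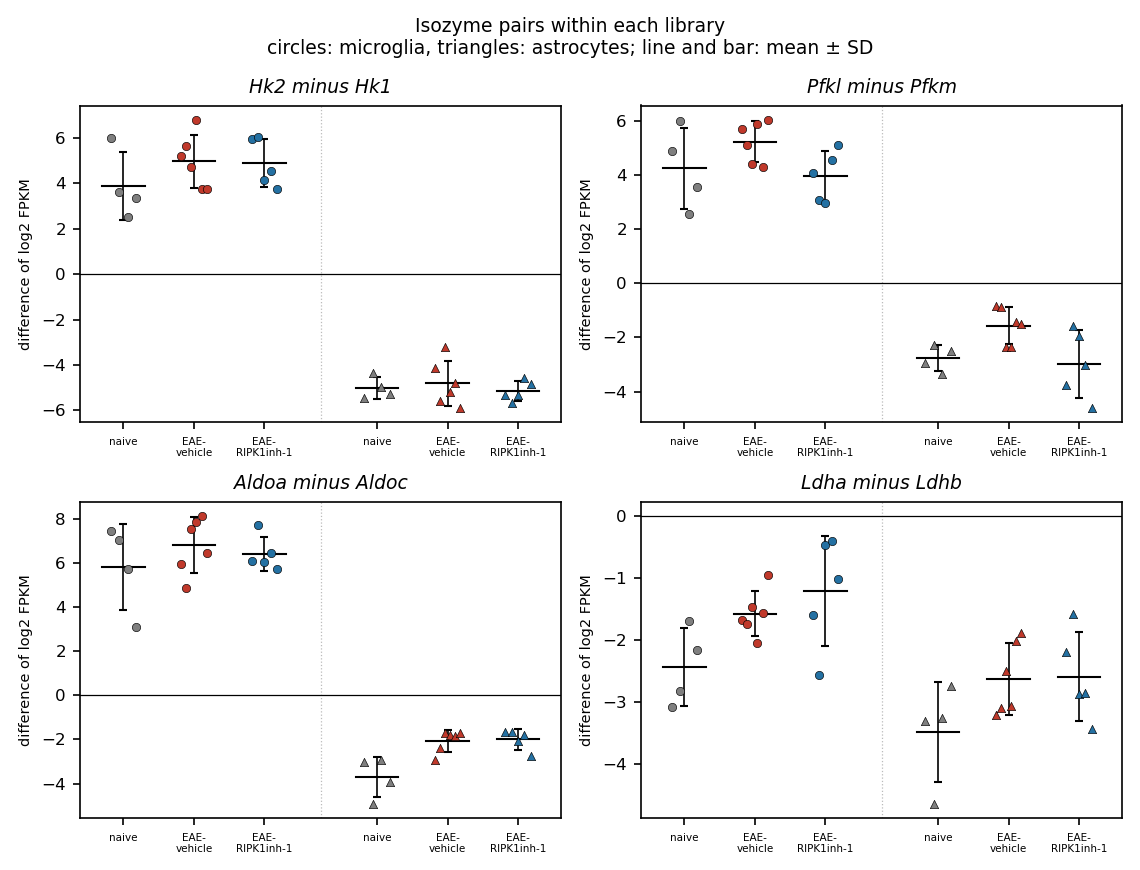
Difference of log2 FPKM between 2 isozymes within each library (y axis), by group (x axis); circles are microglia, triangles astrocytes, lines and bars mean ± SD. Hk2 exceeded Hk1, Pfkl exceeded Pfkm and Aldoa exceeded Aldoc in all 15 microglia libraries and in no astrocyte library, and Ldha lay below Ldhb in all 30.

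In disease the order within Hk2 and Hk1, Pfkl and Pfkm, Aldoa and Aldoc, and Ldha and Ldhb stayed as it was in naive mice in each library, which is given as a description with no test. Hk2 minus Hk1 averaged 3.88 ± 1.51 in naive, 4.98 ± 1.18 in EAE-vehicle and 4.89 ± 1.06 in EAE-RIPK1inh-1 microglia, and -5.02 ± 0.50, -4.81 ± 0.99 and -5.15 ± 0.44 in astrocytes. Aldoa minus Aldoc in astrocytes went from -3.70 ± 0.92 in naive to -2.07 ± 0.50 in EAE-vehicle and -1.99 ± 0.47 in EAE-RIPK1inh-1 mice, so Aldoc stayed above Aldoa in each library by a smaller margin. Pfkp minus Pfkl in microglia went from -4.51 ± 0.86 to -1.79 ± 0.43 and -1.68 ± 0.84, with no overlap between naive libraries (-5.55 to -3.47) and those of either EAE group (-2.53 to -1.39 and -2.81 to -0.57). In astrocytes the same difference was 1.47 ± 0.84, 0.37 ± 0.61 and 1.49 ± 1.01, above 0 in each library but EAE-vehicle replicate 6, at -0.47. Lactate dehydrogenase interconverts pyruvate and lactate, and its A subunit is known to favour lactate. Ldha minus Ldhb was negative throughout, at -2.44 ± 0.63 in naive and -1.58 ± 0.37 in EAE-vehicle microglia, and at -3.49 ± 0.81 and -2.62 ± 0.58 in astrocytes. The ranges of the naive and EAE-vehicle libraries overlapped in both cell types.

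Outside glycolysis most differences went the same way. Of the 16 TCA cycle enzymes, 12 were called lower in microglia and none higher, 10 with an adjusted p under 0.05. Examples were Idh3a, the catalytic subunit of NAD-dependent isocitrate dehydrogenase (difference -3.78, limma adjusted p = 8.03e-05), Sdhc, a membrane anchor of succinate dehydrogenase (-2.97, limma adjusted p = 3.98e-06), and Mdh1, the cytosolic malate dehydrogenase (-2.35, limma adjusted p = 3.2e-09). Slc2a1, the glucose carrier GLUT1, was lower in microglia by a log2 difference of -3.18 (SE 0.83, limma adjusted p = 0.00886). Pgd, the second NADPH-producing step of the pentose phosphate pathway, was the only enzyme of its pathway called higher in microglia, at 5.84, 6.26, 6.86 and 5.44 against 4.30, 0.16, 1.40 and 4.03 in astrocytes (3.63, limma adjusted p = 0.00595). Slc16a3, the lactate exporter MCT4, and Pdk1, a kinase that switches off pyruvate dehydrogenase, were also called higher in microglia, by 2.78 and 1.88 (limma adjusted p = 0.081 and 0.211).

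In EAE, glycolytic enzymes rose in microglia. Of the 49 rows, 15 were called higher and 2 lower in EAE-vehicle against naive microglia, where 6.13% of all genes were called higher and 5.86% lower. Of these 15, 10 were glycolytic. With an adjusted p under 0.05, 6 rows rose and none fell (2.37% and 1.56% of all genes, 3.92% together), all of them glycolytic: Pgk1, Pfkp, Pkm, Gpi1, Pgam1 and Gapdh. For 10 rows every EAE-vehicle library lay above every naive library (2.93% of all genes), and for none below (2.33%). The members' median change was 0.46 against -0.02 for all genes tested.

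Pgk1 and Pfkp changed most clearly. Pgk1, an X-linked kinase that makes the first ATP of glycolysis, was at 3.54, 3.57, 3.84 and 4.18 in the naive microglia and between 5.07 and 6.14 in the 6 EAE-vehicle microglia (median 5.77), and it rose by 1.88 (SE 0.30, limma adjusted p = 0.00168). Pfkp was at 0.63, 1.63, 2.38 and 0.00 in naive and from 3.35 to 4.88 (median 4.16) in EAE-vehicle microglia, and rose by 2.99 (SE 0.48, limma adjusted p = 0.00174). Neither pair of groups overlapped, and the exact permutation p, two-sided, was 0.00476 for each, the smallest that 4 against 6 libraries allow. Both kept an adjusted p under 0.05 in each of the 15 fits that left out 1 library (highest adjusted p 0.00766 and 0.00784) and in every other alternative they entered.

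The sequence upstream of these genes was read because the rising genes share a pathway known to answer to hypoxia-inducible factors. Only ACGTG, a form of their core motif, was searched, and the form GCGTG was not counted. In the 250 bases before the annotated start (RefSeq, GRCm38.p6), ACGTG occurred on either strand for 18 of the 46 members with an entry (39.1%). Over all genes with an entry, it occurred for 4998 of 27025 (18.5%), where a gene counted if any of its windows held it. Those genes were not matched to the expression table, or to the members in base composition, and the difference was not tested. Both counts include any that lie in the E-box CACGTG. Of the 6 genes that rose, Pgk1, Pgam1 and Pkm (in 1 of its 2 annotated windows) held ACGTG and Pfkp, Gpi1 and Gapdh did not. The windows of Pgk1 (chrX:106186850-106187099, plus strand), Pgam1 (chr19:41911621-41911870, plus strand) and Pfkp (chr13:6648772-6649021, minus strand) are shown. They set 2 windows with ACGTG beside that of the gene with the largest rise, which lacks ACGTG. The windows of Pgam1 and Pfkp hold GCGTG on the strand shown. Capitals mark ACGTG or its reverse complement CACGT.
Pgk1: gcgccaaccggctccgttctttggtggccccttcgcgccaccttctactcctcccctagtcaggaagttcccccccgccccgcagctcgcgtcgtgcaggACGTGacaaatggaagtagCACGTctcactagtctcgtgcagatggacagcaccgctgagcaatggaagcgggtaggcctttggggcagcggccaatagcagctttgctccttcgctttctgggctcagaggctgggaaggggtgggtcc
Pgam1: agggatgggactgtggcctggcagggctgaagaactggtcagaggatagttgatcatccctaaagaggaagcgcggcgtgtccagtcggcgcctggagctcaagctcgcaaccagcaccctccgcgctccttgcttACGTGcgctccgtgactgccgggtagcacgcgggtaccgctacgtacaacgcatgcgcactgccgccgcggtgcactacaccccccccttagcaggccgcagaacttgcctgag
Pfkp: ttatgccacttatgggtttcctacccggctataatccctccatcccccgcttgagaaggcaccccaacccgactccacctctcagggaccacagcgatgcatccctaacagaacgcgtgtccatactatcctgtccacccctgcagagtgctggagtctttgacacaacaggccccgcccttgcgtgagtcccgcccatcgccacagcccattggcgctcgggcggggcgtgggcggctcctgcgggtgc
A match is a run of letters in the window and not a measured binding site.

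On GRCm38, Pgk1 spans chrX:106187100-106203699, Pfkp chr13:6579768-6648777, Pkm chr9:59656368-59679375, Gpi1 chr7:34201330-34230336, Pgam1 chr19:41911923-41918660 and Gapdh chr6:125161715-125166467, so the 6 genes lie on 6 chromosomes. The other 4 rising genes span glycolysis from its second step to its last. Gpi1, which converts glucose 6-phosphate to fructose 6-phosphate, was at 5.44, 5.01, 6.28 and 4.43 in naive and 6.63 to 6.97 (median 6.74) in EAE-vehicle microglia (log2 fold change 1.49, limma adjusted p = 0.0197). Gapdh, the step that yields NADH, was at 5.85, 5.62, 6.68 and 6.41 against 7.28 to 7.82 (median 7.45), a rise of 1.35 (limma adjusted p = 0.0442). Pgam1, which moves the phosphate of phosphoglycerate, was at 5.10, 5.84, 4.54 and 5.06 against 6.16 to 6.63 (1.25, limma adjusted p = 0.0283). No naive library reached an EAE-vehicle library for any of these genes. Pkm, the pyruvate kinase of most tissues, was at 7.06, 7.31, 7.57 and 6.43 against 8.30 to 8.78 (median 8.42), again without overlap (1.39, limma adjusted p = 0.0136). Gapdh, whose row is marked confounded, is commonly used as a reference gene, and it was higher by 1.35 on the log2 scale in these libraries. The adjusted calls of these 4 were less stable. Without naive microglia replicate 4, a library with few genes with signal, Pkm kept an adjusted p under 0.05 and Gpi1, Pgam1 and Gapdh did not, and Gapdh kept it 4 times when each of the 15 libraries was omitted in turn.

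**Figure D2:**
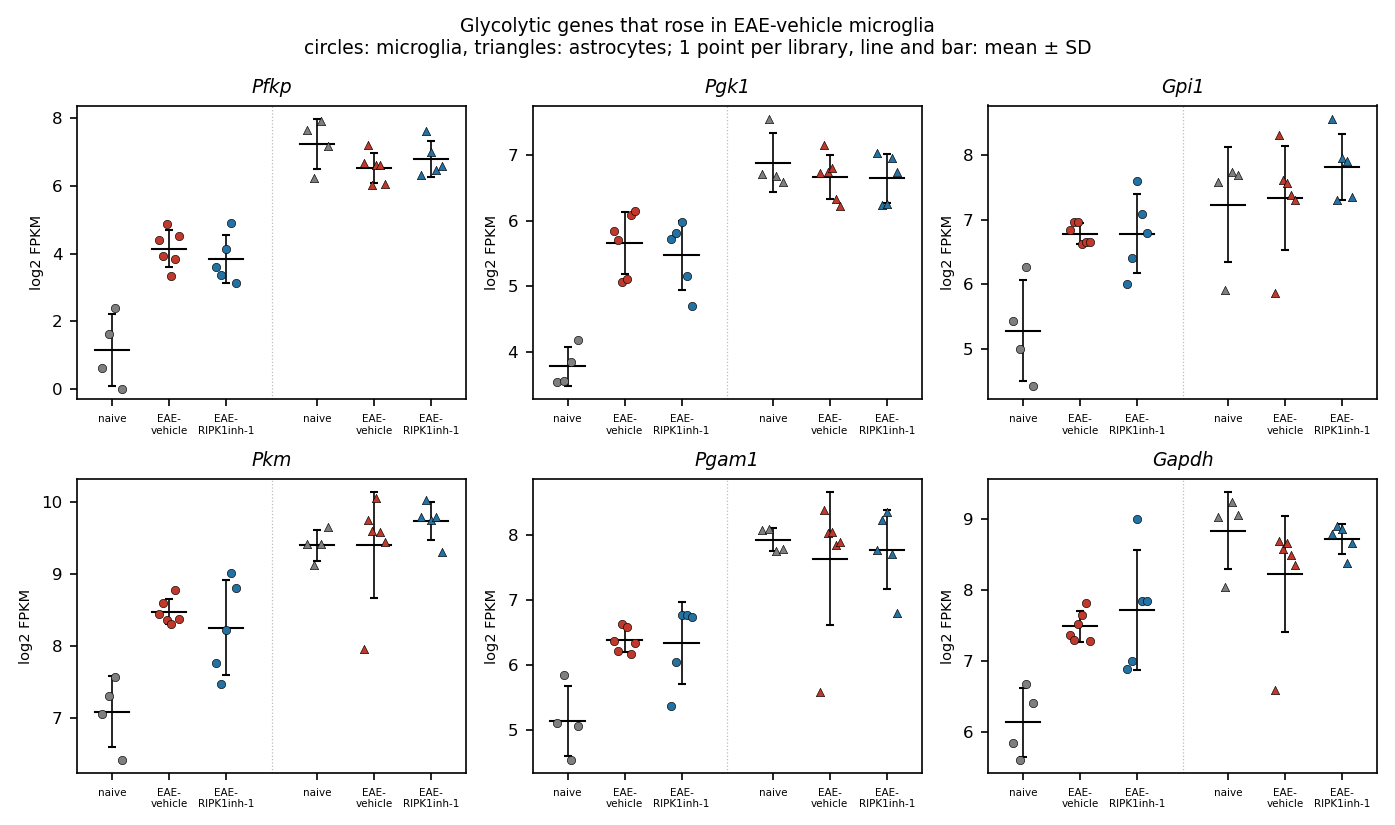
Log2 FPKM (y axis) of the 6 glycolytic genes that rose in EAE-vehicle microglia, by group (x axis), 1 point per library with mean ± SD. In microglia every EAE-vehicle point lies above every naive point, as Pgk1 at 5.07 to 6.14 against 3.54 to 4.18 shows, while the astrocyte groups overlap.

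The remaining called members did not pass the adjusted threshold. Tpi1, which interconverts the triose phosphates, was called higher by 1.11 (limma adjusted p = 0.0564), Aldoa by 0.62, Eno1, which makes phosphoenolpyruvate, by 0.78, and Hk3 by 1.11 (limma adjusted p = 0.0964, 0.114 and 0.16). Aldoa was at 7.81, 8.34, 8.63 and 8.20 in naive and 8.69 to 9.14 in EAE-vehicle microglia, and Eno1 at 7.28, 7.91, 7.81 and 6.27 against 8.00 to 8.23, each without overlap. Ldha was called higher by 0.70 (limma adjusted p = 0.192) and Ldhb changed by -0.16. In the pentose phosphate pathway, only Pgls, its lactonase, was called, by 1.03 (limma adjusted p = 0.0969), at 4.44, 3.73, 4.02 and 3.14 in naive and 4.17 to 5.22 in EAE-vehicle microglia, which overlapped.

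In the TCA cycle the calls went both ways. Sdhb, the iron-sulfur subunit of succinate dehydrogenase, was at 8.22, 7.83, 7.07 and 7.84 in naive and 8.32 to 8.84 in EAE-vehicle microglia (log2 fold change 0.87, limma adjusted p = 0.12), and Sdhc was called higher by 0.94 and Idh3a by 1.64 (limma adjusted p = 0.154 and 0.332). Idh3g, a regulatory subunit of the same isocitrate dehydrogenase, was at 6.52, 7.33, 7.87 and 7.73 against 6.14 to 6.70 and was called lower by a log2 change of -0.94 (limma adjusted p = 0.069). Idh2, the mitochondrial NADP-dependent isocitrate dehydrogenase, was at 5.98, 5.54, 7.80 and 6.77 against 1.34 to 5.97 (median 4.61) and was called lower, by -2.25 (limma adjusted p = 0.136). The groups overlapped for Idh3g and Idh2. The other 11 TCA enzymes, and the 6 genes of pyruvate entry with changes of 0.07 to 1.04, were not called. Of the 17 calls, 6 were lost in at least 1 fit that left out 1 library: Eno1 and Hk3 without naive microglia replicate 4 (0.43 and 0.86), Sdhc without naive microglia replicate 2, Aldoa and Ldha in 2 fits each, and Idh3a in 7.

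**Figure D3:**
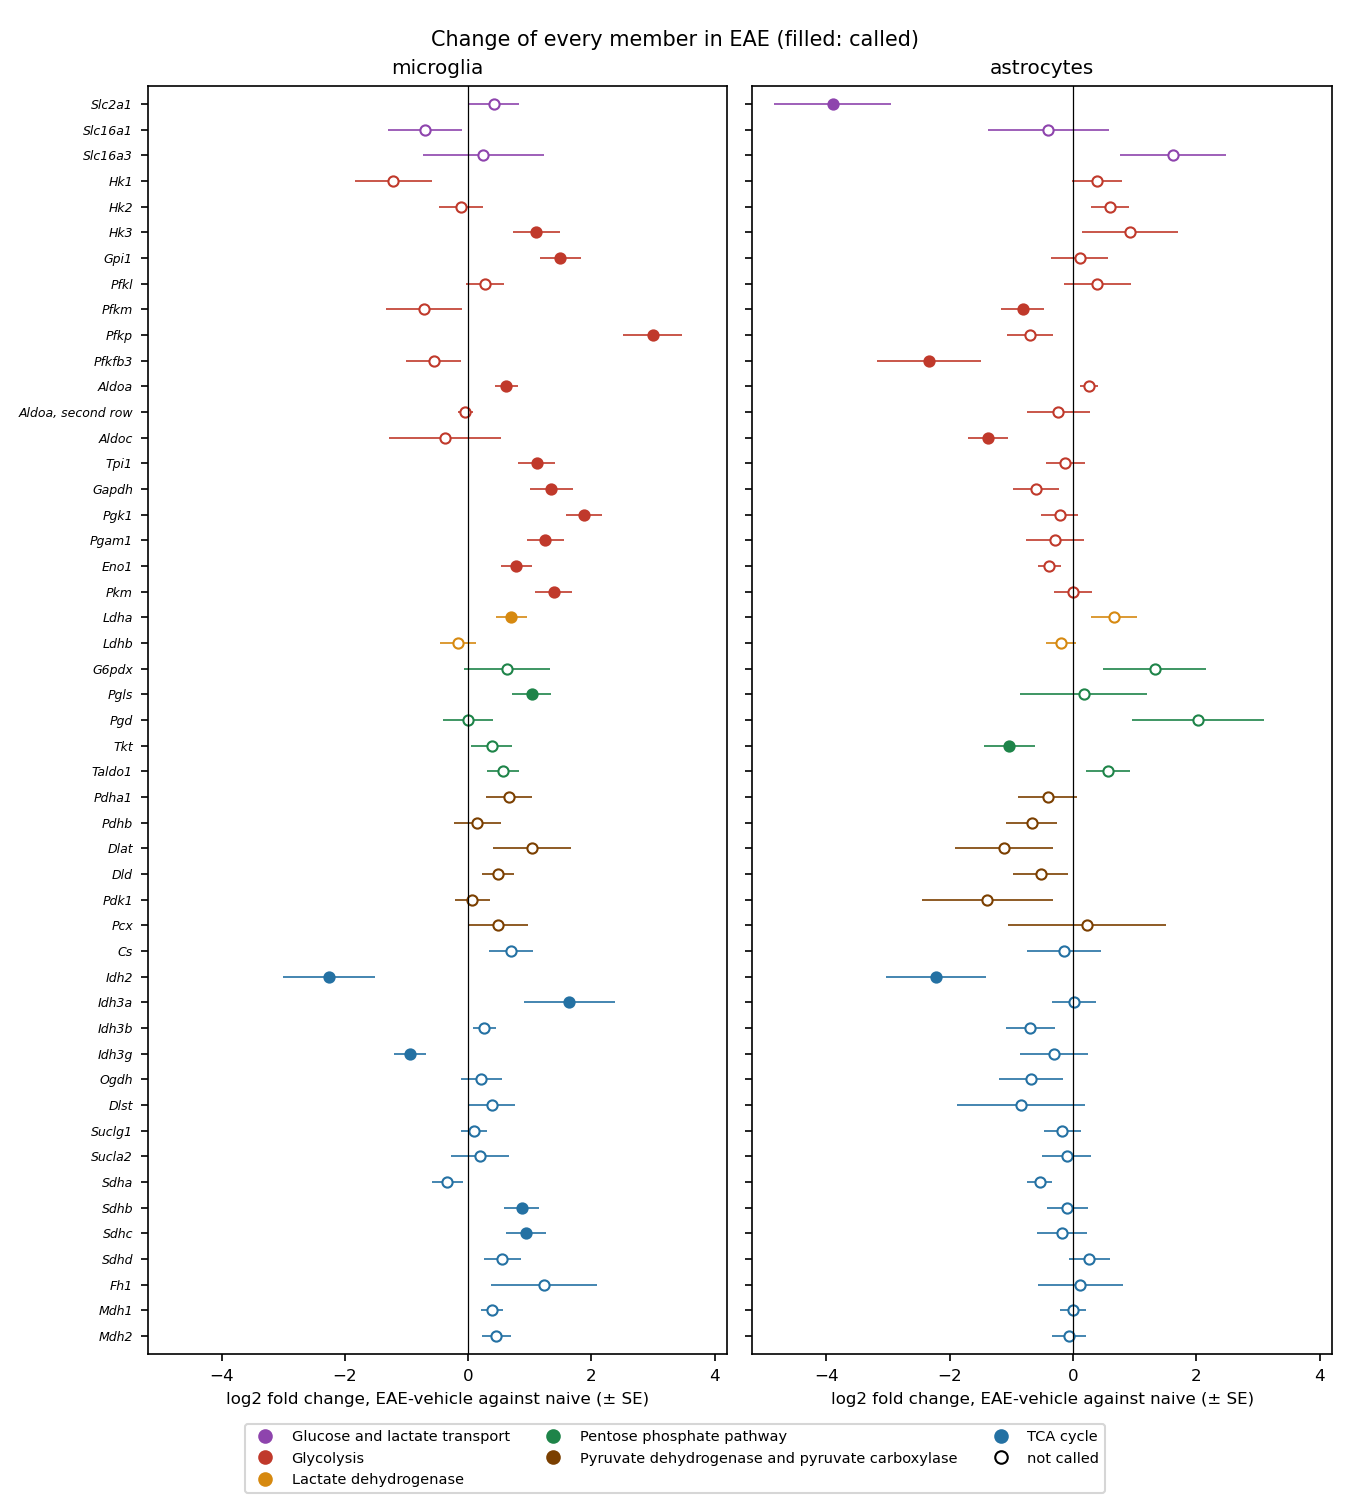
Log2 fold change of EAE-vehicle against naive (x axis, ± SE) for each of the 49 rows (y axis, coloured by pathway) in microglia (left) and astrocytes (right); filled points were called. Filled points lie mostly right of 0 in microglia (15 of 17) and left of 0 in astrocytes (6 of 6, of which 4 were called after median centring, with 2 others to the right).

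With RIPK1inh-1, Pgk1, Pfkp, Gapdh, Gpi1 and Pgls were above the naive level in microglia. Against EAE-vehicle, the 6 genes that rose in EAE differed by -0.19 (SE 0.28) for Pgk1, -0.31 (SE 0.45) for Pfkp, -0.22 (SE 0.28) for Pkm, -0.00 (SE 0.31) for Gpi1, -0.05 (SE 0.28) for Pgam1 and 0.23 (SE 0.33) for Gapdh, and none was called. Against naive microglia, 14 members were called higher and 1 lower with the inhibitor (5.35% and 4.71% of all genes, 10.1% together), and 5 had an adjusted p under 0.05, all higher (1.81% of all genes higher, 2.73% in either direction): Pgk1 (1.69), Pfkp (2.68), Pgls (1.51), Gapdh (1.58) and Gpi1 (1.49), with limma adjusted p of 0.00685 to 0.0351. Pgk1 was at 5.72, 5.81, 5.98, 5.15 and 4.71 and Pfkp at 3.62, 3.39, 4.15, 4.91 and 3.13 in the 5 inhibitor libraries, all above the naive libraries. When each of the 15 libraries was omitted in turn, Pgk1 and Pfkp kept an adjusted p under 0.05 each time, Gapdh 11 times, Pgls 10 times and Gpi1, whose libraries overlapped with naive, 6 times. Without naive microglia replicate 4 Pgls and Gpi1 lost it, and with quality weights Pgk1 and Pfkp did. The other members called against naive were Tpi1 (1.23), Pgam1 (1.20), Pkm (1.16), Hk3 (1.48), Ldha (0.77), Taldo1 (0.77), Cs (0.99), Sdhc (1.20) and Fh1 (1.95), all higher, and Idh2 (-1.70), lower. The call of Fh1 was lost for 12 of the 15 libraries omitted in turn, with a value of 1.15 without naive microglia replicate 4, and that of Idh2 for 9, with -1.27 without naive microglia replicate 3. These comparisons share the naive libraries with those of EAE-vehicle. The mean over the 17 glycolytic rows was 4.61 in naive, 5.27 in EAE-vehicle and 5.34 in EAE-RIPK1inh-1 microglia, that over the 16 TCA rows 5.57, 5.84 and 5.81, and that over the 5 pentose phosphate enzymes 5.37, 5.89 and 6.14.

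Between inhibitor and vehicle, 4 members were called in microglia, 1 higher and 3 lower (1.06% and 0.701% of all genes, 1.76% together), and none had an adjusted p under 0.05 (0.00345% of all genes in either direction). By limma 4 members had both the fold change and an unadjusted p under 0.05. The 3 lower members belong to the TCA cycle. Sdhb was at 8.45, 8.67, 7.44, 7.53 and 7.41 with the inhibitor and 8.32 to 8.84 with vehicle (log2 fold change -0.71, SE 0.26, limma adjusted p = 0.93). Mdh2, the mitochondrial malate dehydrogenase, was at 7.49, 7.93, 7.12, 7.07 and 7.18 against 7.61 to 8.29 (-0.59, SE 0.22). Sucla2, a subunit of succinyl-CoA synthetase, was at 5.43, 5.94, 3.71, 4.03 and 4.42 against 5.50 to 5.93 (-1.03, SE 0.44). In all of them inhibitor replicates 3, 4 and 5 were low and replicates 1 and 2 lay within or near the vehicle range, so the groups overlapped. Pfkfb3, whose product activates phosphofructokinase, was called higher by 0.94 (SE 0.42), at 4.54, 3.91, 5.62, 6.12 and 6.25 against 3.62 to 4.96, and here replicates 3, 4 and 5 were the high ones. Without inhibitor replicate 5 none of the 4 calls remained, and the values were -0.59, -0.54, -0.95 and 0.71.

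Eno1 was the only member without overlap between inhibitor and vehicle in microglia, lower with the inhibitor (1.18% of all genes did not overlap in that direction). It was at 7.74, 7.52, 7.76, 7.82 and 7.74 with the inhibitor and from 8.00 to 8.23 with vehicle, a difference of -0.38 (SE 0.23) that was not called. Its exact permutation p, two-sided and unadjusted, was 0.0022, the smallest that 5 against 6 libraries allow, while its unadjusted limma p was 0.121. The permutation p follows largely from the lack of overlap for which Eno1 was singled out. The naive libraries spanned 6.27 to 7.91, so the inhibitor libraries lay inside the naive range.

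**Figure D4:**
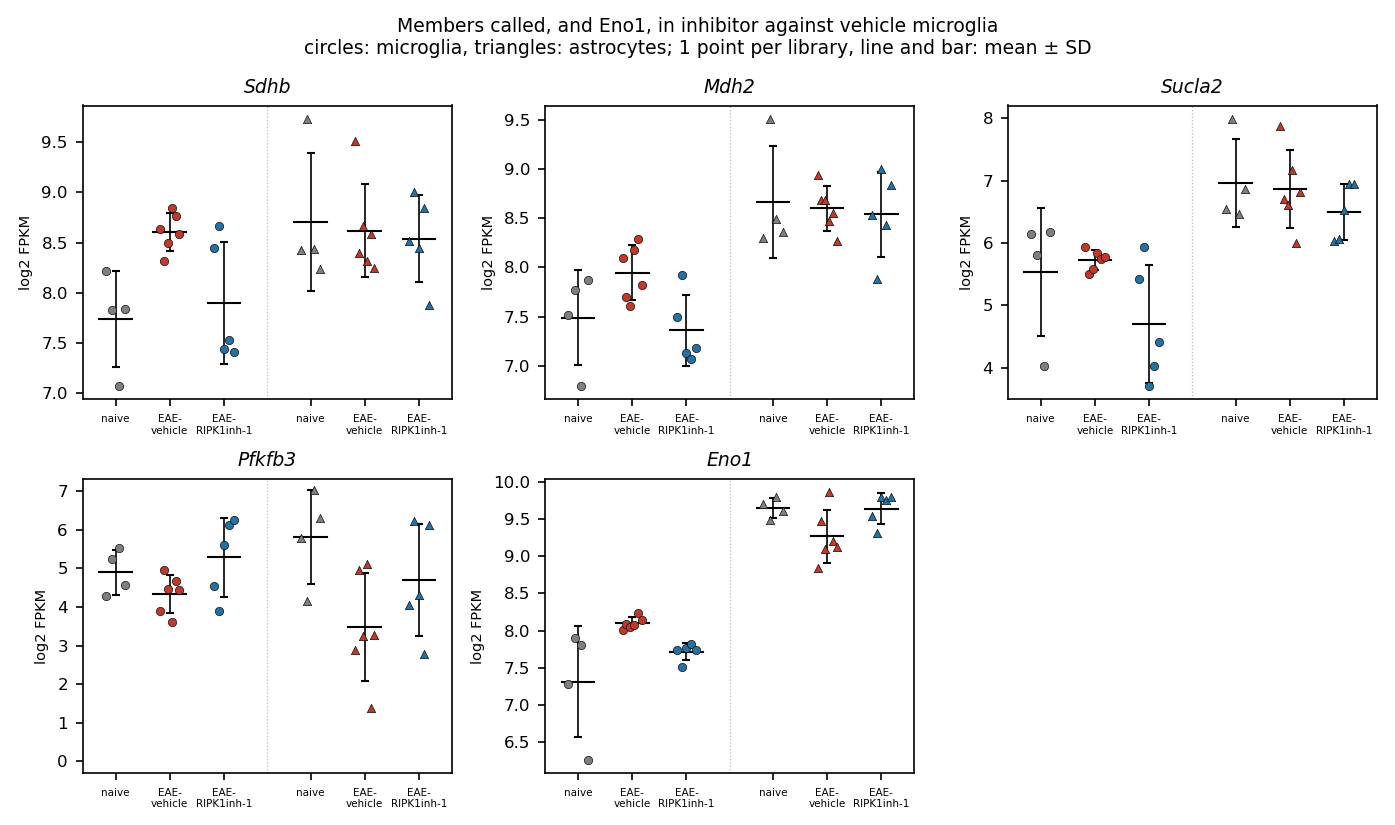
Log2 FPKM (y axis) of the 4 members called between EAE-RIPK1inh-1 and EAE-vehicle microglia, and of Eno1, by group (x axis), 1 point per library with mean ± SD. Sdhb, Mdh2 and Sucla2 each show 3 low inhibitor libraries, and the inhibitor points of Eno1, at 7.52 to 7.82, lie below the vehicle points, at 8.00 to 8.23.

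Astrocytes in EAE showed no member higher and 6 lower among those called against naive astrocytes, where 2.69% of all genes were called higher and 4.01% lower. None had an adjusted p under 0.05 (0.579% of all genes, 0.238% for lower), and 7 had an unadjusted p under 0.05 by limma. Only Slc2a1 did not overlap (1.28% of all genes did not, lower). Across members, 32 of 49 changes were below 0, with a median of -0.18, and with each library centred on its median, which moved every change in this comparison up by 0.17, the members' median was -0.0047. With that centring Tkt and Pfkm were not called, and 2 members were called higher, Pgd and Slc16a3, and 4 lower.

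By pathway, 13 of 16 TCA enzymes, 5 of 6 genes of pyruvate entry and 10 of 17 glycolytic rows had changes below 0, while 4 of 5 pentose phosphate enzymes had changes above 0, all without a test of the list. These counts are without median centring, which moved every change up by 0.17 and left the members' median at -0.0047. They therefore do not show a fall of these pathways. Slc2a1 and Aldoc had the smallest p-values. Slc2a1 was at 7.51, 6.30, 8.46 and 8.17 in naive astrocytes and at 0.19, 4.87, 2.68, 4.09, 5.24 and 5.20 in EAE-vehicle astrocytes, a log2 change of -3.90 (SE 0.95, limma adjusted p = 0.0972, exact permutation p = 0.00476, two-sided). The lowest value came from EAE-vehicle astrocytes replicate 1, and the change was -3.20 without it. GLUT1 is also abundant in endothelium. The mean of 6 endothelial markers was 1.25 in naive, 0.52 in EAE-vehicle and 0.45 in EAE-RIPK1inh-1 astrocytes. Among them, Cldn5 was at 7.81 in naive replicate 4 and at 0.00 to 1.41 in the other naive astrocytes. Slc2a1 was at 6.30 to 8.46 in those other libraries. Pecam1 was at most 1.72 in naive astrocytes, and at 3.03 and 2.46 in EAE-vehicle replicates 5 and 6. The part of endothelial cells in the change of Slc2a1 was not tested. Aldoc went from 12.87 to 14.48 in naive to 11.64 to 13.01 (median 12.02) in EAE-vehicle astrocytes, a change of -1.38 (SE 0.33, limma adjusted p = 0.0879). Those groups overlapped by EAE-vehicle replicate 1 alone, at 13.01.

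The other 4 called members were spread over the pathways. Pfkfb3 was at 5.79, 4.16, 7.03 and 6.30 in naive and 1.38 to 5.12 (median 3.26) in EAE-vehicle astrocytes (log2 fold change -2.34, limma adjusted p = 0.429). Idh2 was at 6.50, 5.30, 6.38 and 6.18 against 0.64 to 5.63 (median 3.98), a change of -2.23 (limma adjusted p = 0.438). Tkt, the transketolase that links the pentose phosphate pathway to glycolysis, was at 7.53, 5.70, 7.70 and 7.37 against 5.51 to 6.79 (-1.03, limma adjusted p = 0.537). Naive replicate 2 was the lowest of its group in Pfkfb3, Idh2 and Tkt. Pfkm was at 8.54, 7.98, 8.98 and 8.67 against 6.23 to 8.29 (-0.81, limma adjusted p = 0.614), and without EAE-vehicle replicate 1, which held the lowest value, it changed by -0.51 and was not called. Without the 4 libraries of low signal, 8 members were called lower and none higher. Pfkfb3 lost its call without naive replicate 3 (-1.94). Omitting each of 15 libraries in turn lost the call of Pfkm 4 times and that of Tkt 3 times. Idh2 was called lower in both cell types, and the difference of its EAE effect between them was -0.02 (SE 1.13).

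**Figure D5:**
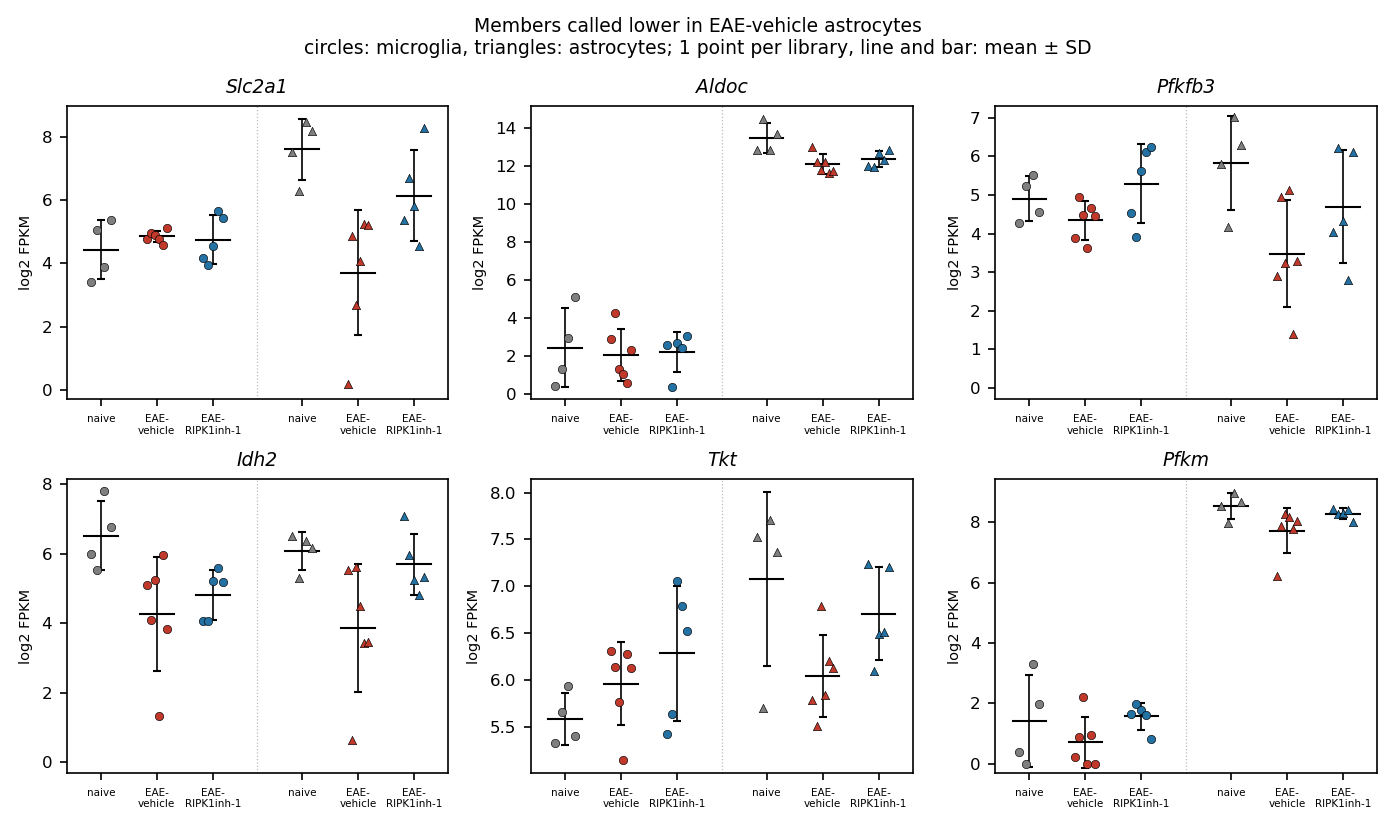
Log2 FPKM (y axis) of the 6 members called lower in EAE-vehicle against naive astrocytes, by group (x axis), 1 point per library with mean ± SD. For Slc2a1 the naive astrocyte points, at 6.30 to 8.46, lie above the EAE-vehicle points, at 0.19 to 5.24, and the other genes overlap.

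Next in the order of p came members that were not called, and their values are given without a verdict. Sdha, the catalytic subunit of succinate dehydrogenase, was at 8.52, 8.54, 8.07 and 8.68 in naive and 7.49 to 8.20 in EAE-vehicle astrocytes (-0.54). Eno1 was at 9.70, 9.49, 9.80 and 9.60 against 8.84 to 9.86 (-0.38), and Pfkp at 7.64, 6.23, 7.91 and 7.17 against 6.03 to 7.22 (-0.70). Some members at lower levels in astrocytes than in microglia leaned the other way, such as Hk2 (0.60), Pgd (2.03) and Slc16a3 (1.62), while Pdk1 did not. Slc16a3 read 0.10 in 1 naive astrocyte library and 0.00 in the others, and 0.00, 1.38, 1.93, 1.06, 2.97 and 2.54 in EAE-vehicle astrocytes. The microglia markers averaged 1.63 in naive astrocytes (0.86 to 2.34), 3.18 in EAE-vehicle (2.01 to 4.05) and 2.68 in EAE-RIPK1inh-1 astrocytes (2.41 to 3.06).

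With RIPK1inh-1, Slc2a1 and Idh2 were called higher in astrocytes. They were the 2 members called against EAE-vehicle, with none lower (1.84% and 1.18% of all genes, 3.02% together). By limma none had an adjusted p under 0.05 (0% of all genes) and 3 an unadjusted p under 0.05, Aldoa being the third. Slc2a1 was at 5.36, 6.71, 5.81, 4.56 and 8.28 with the inhibitor, against 0.19 to 5.24 with vehicle, a difference of 2.43 (SE 0.89, limma adjusted p = 0.84, exact permutation p = 0.0368, two-sided). All 5 inhibitor libraries lay above the vehicle mean, but the groups overlapped. Without the 4 libraries of low signal, which include the highest inhibitor library and the lowest vehicle library, Slc2a1 was not called. Idh2 was at 7.10, 5.98, 5.24, 4.83 and 5.35 against 0.64 to 5.63, a difference of 1.83 (SE 0.76, limma adjusted p = 0.84), and its call was lost for 5 of the 15 libraries omitted in turn.

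Against naive astrocytes, the inhibitor group had 3 members called higher and 1 lower (1.98% and 2.64% of all genes, 4.63% together). By limma none had an adjusted p under 0.05 (0.130% of all genes, 0.00651% for lower), and the 4 were those with an unadjusted p under 0.05. Aldoc was at 12.02, 11.93, 12.70, 12.32 and 12.87, a change of -1.11 (SE 0.34, limma adjusted p = 0.516), which touched the naive range at 12.87. Aldoa was higher by 0.59, with a median of 10.38 and all 5 libraries above the naive range of 9.58 to 9.92, and Hk3, at 0.90, 3.63, 3.56, 0.87 and 1.32 against 0.00 to 0.01, by 2.05. Those 2 did not overlap (0.785% of all genes did not, higher). Slc16a3 was called higher by 1.92, with 2 of 5 inhibitor libraries at 0.00. Its call was lost for 11 of the 15 libraries omitted in turn, that of Aldoa for 3 and that of Hk3 for 2, the inhibitor replicates 2 and 3 (1.66 and 1.68). Slc16a3 was at 1.36 without inhibitor replicate 1 and at 1.46 without replicate 4. Without the 4 libraries of low signal this comparison called 5 members higher and 5 lower.

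The EAE effect differed between the cell types for 3 members. In a fit of all 30 libraries, the change in microglia minus that in astrocytes was called positive for 14 members and negative for 1 (4.97% and 3.71% of all genes), and 3 passed the adjusted threshold (0.982% of all genes in either direction). Pfkp differed by 3.69 (SE 0.62, limma adjusted p = 0.00166), from a rise of 2.99 in microglia and a change of -0.70 in astrocytes. Pgk1 differed by 2.09 (SE 0.42, limma adjusted p = 0.00985). Slc2a1 differed by 4.32 (SE 1.07, limma adjusted p = 0.045), from 0.42 in microglia and -3.90 in astrocytes. Pfkp and Pgk1 stayed under the threshold when each of the 30 libraries was omitted in turn, and Slc2a1 for 11 of them (highest limma adjusted p 0.102). Pgk1 lost it with each library centred on its median, and Pgk1 and Slc2a1 with a replicate block. The others called were Gapdh (1.96), Pgam1 (1.55), Tkt (1.41), Gpi1 (1.39), Pkm (1.38), Tpi1 (1.24), Eno1 (1.16), Sdhc (1.12), Sdhb (0.96), Idh3b (0.96) and Dlat (2.16), and Hk1 alone was negative (-1.60). Pfkp rose from 1.16 to 4.15 in microglia, and at 4.15 it remained below the EAE-vehicle astrocytes at 6.54.

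The inhibitor effect was called different between cell types for 3 members, all more negative in microglia (1.66% of all genes in that direction, 3.15% in either), with none under the adjusted threshold by limma and 3 at an unadjusted p under 0.05. They were Slc2a1 (-2.53, SE 1.01), Eno1 (-0.76, SE 0.30) and Aldoa (-0.60, SE 0.23), each with a limma adjusted p of 0.948.

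Other genes of the same pathways, 96 of a list of 100 symbols, were examined in the same fits. In EAE-vehicle against naive microglia, 9 of the 95 tested were called higher and 6 lower, beside 6.13% and 5.86% of all genes. With an adjusted p under 0.05, 3 rose and 3 fell, beside 2.37% and 1.56% of all genes. Acod1, which makes itaconate from the TCA intermediate aconitate, was at 0.41, 0.00, 0.52 and 0.00 in naive and 4.10 to 5.50 (median 5.06) in EAE-vehicle microglia, a rise of 4.68 (SE 0.35, limma adjusted p = 1.98e-06). With the inhibitor it was at 4.56, 4.33, 5.65, 6.00 and 5.27. In EAE-vehicle astrocytes it read 0.00 in 5 libraries and 1.44 in 1, and in EAE-RIPK1inh-1 astrocytes 0.71, 0.00, 3.53, 3.83 and 0.00. Its EAE effect differed between cell types by 4.72 (limma adjusted p = 0.00363).

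Sugar carriers moved apart. Slc2a5, the fructose carrier that marks microglia, fell from 8.00, 8.39, 7.95 and 6.46 to between 4.15 and 5.46 (log2 fold change -2.73, limma adjusted p = 0.000906), without overlap. Slc2a6, a carrier of lysosomal membranes in macrophages, rose from 1.86, 2.68, 3.46 and 3.95 to between 4.89 and 5.85 (2.34, limma adjusted p = 0.019). Slc25a10, the mitochondrial dicarboxylate carrier, rose by 1.92 (limma adjusted p = 0.0405), and its highest naive library, at 2.67, lay inside the EAE-vehicle range of 1.96 to 3.27. Among regulators, Txnip, an inhibitor of glucose uptake, fell from 7.43, 7.55, 7.99 and 8.44 to between 4.40 and 6.32 (log2 fold change -2.69, limma adjusted p = 0.000503), and Mlxipl, the glucose-sensing factor that switches on Txnip, fell from between 6.41 and 7.43 to between 3.63 and 4.87 (-2.33, limma adjusted p = 0.00514). With the inhibitor, Txnip was at 5.55, 5.33, 6.65, 6.12 and 5.62 and Slc2a5 at 5.67, 4.41, 4.28, 5.36 and 5.42, and both stayed below the naive libraries. Among the 96 tested in astrocytes, 3 were called higher and 10 lower in EAE-vehicle against naive mice, beside 2.69% and 4.01% of all genes. None had an adjusted p under 0.05 (0.579% of all genes).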

How the data were processed

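RNA of sorted microglia and astrocytes was measured in 30 libraries. The authors made poly(A) cDNA libraries, aligned and quantified reads in OmicSoft Array Studio, and deposited log2 FPKM values, which every library holds with the same sorted values (0 to 15.34), as quantile normalization over all 30 leaves them. The offset before the logarithm, the aligner and the annotation release are not given in the sources used here, and depth is unknown, so no counting error was computed. Positions of 49 of 49 rows matched GRCm38. Libraries were grouped by their titles. The short column codes of the EAE-vehicle replicate 1 libraries of the 2 cell types break the order of the other codes as if exchanged, but their markers match the titles. The test on the deposited log2 values was limma 3.58.1 under R 4.3.3 (lmFit, eBayes with trend), over the 3 groups of a cell type (28958 genes in microglia, 30718 in astrocytes) or all 30 libraries (30952), unpaired, since the labels pair no mice and the paper names a paired test. Within a cell type, the tests set differences against the spread between mice. The fit of all 30 libraries took them as independent, although the 2 cell types may come from the same mice. Exact permutation tests went over all 210, 462 or 126 splits. The fits were tested on simulated data with independent normal noise per gene. That did not mimic quantile normalization or libraries of unequal signal, so it does not show how the fits behave under these. Genes without signal hold small rank-ordered values. Members, gene lists and markers were chosen with earlier results of these data known. Called members were named, with values for up to 12 members per cell type by p and the isozyme families; other pathway genes were named at an adjusted p under 0.05. Of their 100 symbols, 4 were not found, and 1 marker, Trac, was not found. Alternatives were a filter on mean level (at least 1), another log offset, median centring, no variance trend, quality weights, confounded genes left out, a replicate block, only 2 groups, and 1 library left out.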

Additional observations from a re-analysis of the deposited data

Results flagged for a closer look

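In groups of 4 to 6 libraries, a library was singled out when its gap to the rest was large against the group's range (Dixon's test), which chance does in about 1 of 20 groups. This held in 21 of 205 groups (10.2%), of which 8 were naive astrocytes replicate 2 and 7 EAE-vehicle astrocytes replicate 1, both among the 4 libraries of low signal. Naive astrocytes replicate 2 was low in Tkt (5.70), Slc16a1 (2.13) and Gpi1 (5.91), in the mean of glycolysis (6.48) and in that of all members (6.02), and high in Sdhb (9.73), Mdh2 (9.51) and Pgk1 (7.55). EAE-vehicle astrocytes replicate 1 was low in Pfkm (6.23), Pgam1 (5.58), Gapdh (6.59), Pkm (7.97), Idh3g (5.18) and the mean of all members (5.49), and high in Sdhb (9.51).

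The other libraries singled out were EAE-RIPK1inh-1 microglia replicate 2 (low in Aldoc, 0.33, and Eno1, 7.52), naive microglia replicate 4 (low in Sdha, 6.15), EAE-vehicle astrocytes replicate 2 (low in Slc16a1, 1.07), EAE-vehicle microglia replicate 4 (low in the mean of the pentose phosphate pathway, 5.18) and EAE-RIPK1inh-1 astrocytes replicate 3 (high in that mean, 6.19).

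The EAE effect differed between microglia and astrocytes by an interaction test for Pfkp (3.69), Slc2a1 (4.32) and Pgk1 (2.09), as log2 differences with an adjusted p under 0.05. That fit took the 30 libraries as independent. With the replicate block only Pfkp kept the threshold. Pgk1 also lost it with median centring, and Slc2a1 kept it for 11 of the 30 libraries omitted in turn.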

How the results depend on the processing

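The sign of the change did not turn for any called member under any alternative run. In the order EAE-vehicle against naive, inhibitor against vehicle and inhibitor against naive in microglia, the same 3 in astrocytes, naive microglia against naive astrocytes, and the differences of the EAE effect and of the inhibitor effect between cell types, 17, 4, 15, 6, 2, 4, 37, 15 and 3 members were called. With the confounded genes left out, which leaves 23 members, the counts were 8, 2, 5, 1, 0, 2, 17, 6 and 1. By an adjusted p under 0.05 alone they were 6, 0, 5, 0, 0, 0, 30, 3 and 0. With quality weights, inhibitor against vehicle gave 7 in microglia and 1 in astrocytes, and in astrocytes the comparisons with naive gave 10 for EAE-vehicle and 9 for the inhibitor. Without the 4 libraries of low signal, an alternative chosen after seeing the data, inhibitor against vehicle in astrocytes gave 1 and inhibitor against naive 10. Leaving out 1 library gave 14 to 20, 0 to 5, 13 to 17, 4 to 9, 1 to 4, 2 to 8, 34 to 37, 11 to 16 and 2 to 4. The 0 was without EAE-RIPK1inh-1 microglia replicate 5. The causes were not tested.

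Equal replicate numbers were checked for pairing. Of 26 same-number pairs within a cell type, which come from different mice, correlations of deviations ran from -0.16 to 0.24 and 4 were over 0.1. For the 15 pairs of the same number and treatment across cell types, they ran from -0.04 to 0.13 and 1 was over 0.1. Whether these share a mouse is not in the labels. In the fit of all 30 libraries, the block joined the cell types by treatment and replicate number. With the replicate block the counts of members called were 17, 3, 13, 5, 3, 6, 37, 11 and 3, and the members of microglia in EAE-vehicle with an adjusted p under 0.05 went from 6 to 2, Pgk1 and Pfkp; quality weights also left these 2. The block also took that count from 5 to 2 for inhibitor against naive microglia, and from 3 to 1, Pfkp, for the difference of the EAE effect between cell types. With only the 2 groups compared, inhibitor against naive microglia kept 1, Pgk1. With a mean level of at least 1 required, that count was 11. Depth is unknown, so a member at the bottom of the scale was not detected at an unknown depth.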
